A study of Mus musculus with 2 samples.

Results

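Prostaglandins are short-range lipid signals, and their route from arachidonate to receptor is read here through 8 genes: the cyclooxygenases Ptgs1 and Ptgs2, the terminal synthases Ptgds, Hpgds, Ptges and Ptgis, and the receptors Ptger4 and Ptgfr. The members are a named set of symbols, picked with earlier results of these data known, and are 8 of the 25827 genes counted. All 8 had at least 1 unique molecular identifier (UMI, a tag that marks 1 captured transcript molecule) in both libraries. The libraries came from cells sorted out of adult mouse whole brain and were made with the 10x Genomics Chromium 3′ kit, which tags each transcript near its 3′ end. The 2 libraries are IL34LacZ/LacZ, from mice homozygous for a LacZ reporter allele at Il34, and IL34LacZ/+, from mice heterozygous for that allele. Il34 encodes interleukin-34, a ligand of the receptor CSF1R on macrophages and microglia. Both libraries therefore carry the LacZ allele, and a library without it was not analysed here. The sort took microglia, border-associated macrophages (BAMs), astrocytes, endothelial cells, fibroblasts and mural cells. The sources used here do not give the number, sex or pooling of the animals. With 1 library per genotype no test between genotypes is possible, so every interval below covers counting error only and every difference is a difference between these 2 libraries.

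The tables held 18858 barcodes in IL34LacZ/LacZ and 17168 in IL34LacZ/+, with 95505407 UMIs in IL34LacZ/LacZ and 87394167 UMIs in IL34LacZ/+. Filtering kept 9619 cells (51.0%) with a median of 3684 UMIs in IL34LacZ/LacZ and 8208 cells (47.8%) with a median of 3540.5 UMIs in IL34LacZ/+. Of the barcodes, 103 occurred in both libraries and 26 of those were kept. Il34 itself gave 386 UMIs (7.26 CPM, UMIs of a gene per 1000000 UMIs of the cells summed) in IL34LacZ/LacZ and 289 UMIs (6.36 CPM) in IL34LacZ/+. The labels do not give the stretch of the gene that the LacZ allele replaces, so these 3′ tags do not check the genotypes and each library is called by its label. No cell annotation was used, so cells were clustered with the 8 members and the related pathway genes left out, and the groups are named for marker genes; each name means cells like that type. The 18 groups compared held at least 50 cells in each library. They included microglia (1044 cells in IL34LacZ/LacZ and 756 in IL34LacZ/+), BAMs split into MHC-II-high (356 in IL34LacZ/LacZ and 272 in IL34LacZ/+), interferon-high (76 in IL34LacZ/LacZ and 157 in IL34LacZ/+), and other (1334 in IL34LacZ/LacZ and 1426 in IL34LacZ/+). The others were 4 fibroblast groups, 4 endothelial groups, mural cells, and choroid plexus epithelial, ependymal, oligodendrocyte, neuron and neutrophil groups. The neutrophil group was a single cluster with Camp, Ngp, Elane and Prtn3 among its leading genes. Its proliferation markers stood on average 4.78 log2 units above the median cluster. Another neutrophil cluster, led by S100a8, S100a9 and Retnlg, was left out as mixed with BAM markers, so neutrophil values below do not cover it. Only 15 astrocyte cells in IL34LacZ/LacZ and 16 in IL34LacZ/+ passed, so the sorted astrocytes are not described. Neurons, oligodendrocytes, choroid plexus epithelium, ependymal cells and neutrophils were not targets of the sort, and their numbers depend on what passed the gates.

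Cyclooxygenases turn arachidonate, freed from membranes by phospholipases, into the unstable intermediate prostaglandin H2, and each terminal synthase turns that intermediate into a single prostanoid: prostaglandin D2 (Ptgds and Hpgds), prostaglandin E2 (Ptges) or prostacyclin (Ptgis). Ptgs1 is usually constitutive, whereas Ptgs2 is an inducible gene of the immediate-early kind. Ptgds protein is also the beta-trace protein of cerebrospinal fluid, secreted by leptomeninges, choroid plexus and oligodendrocytes. Ptger4 encodes EP4, a receptor for prostaglandin E2, and Ptgfr encodes FP, the receptor for prostaglandin F2-alpha.

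On GRCm38 the members lie at Ptgs1 chr2:36230426-36252272 (+ strand), Ptgds chr2:25466709-25470046 (- strand), Ptges chr2:30889471-30929863 (- strand), Ptgis chr2:167191805-167240604 (- strand), Ptgs2 chr1:150100031-150108227 (+ strand), Ptgfr chr3:151796502-151837630 (- strand), Hpgds chr6:65117293-65144908 (- strand) and Ptger4 chr15:5206661-5244187 (- strand). Ptger4 overlaps Ttc33 on the opposite strand, a gene with 3040 UMIs in the kept cells. The sources used here do not say whether counting used the strand, so reads of the pair may not be told apart. Promoter sequences from RefSeq (GRCm38.p6, 250 bases before to 50 bases after each gene's start) were matched for 7 members. The sequences of Ptgs1, Hpgds and Ptgs2 are shown because Ptgs1 and Hpgds were both highest in microglia and Ptgs2 was not. They are written 5′ to 3′ on the gene's own strand in lower case. Capitals mark GAGGAAG, the core of sites bound by the macrophage factor PU.1, in Ptgs1 and Hpgds. In Ptgs2 they mark TTGCGCA (a C/EBP family site) and TGACGT (part of the cAMP response element).
Ptgs1, chr2:36230176-36230475, + strand: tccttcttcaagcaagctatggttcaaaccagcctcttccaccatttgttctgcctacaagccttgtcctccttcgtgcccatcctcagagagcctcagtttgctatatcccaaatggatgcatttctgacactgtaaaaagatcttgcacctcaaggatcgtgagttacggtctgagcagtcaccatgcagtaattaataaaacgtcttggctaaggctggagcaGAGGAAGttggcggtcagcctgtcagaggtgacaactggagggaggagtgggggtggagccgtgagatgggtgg
Hpgds, chr6:65144681-65144980, - strand: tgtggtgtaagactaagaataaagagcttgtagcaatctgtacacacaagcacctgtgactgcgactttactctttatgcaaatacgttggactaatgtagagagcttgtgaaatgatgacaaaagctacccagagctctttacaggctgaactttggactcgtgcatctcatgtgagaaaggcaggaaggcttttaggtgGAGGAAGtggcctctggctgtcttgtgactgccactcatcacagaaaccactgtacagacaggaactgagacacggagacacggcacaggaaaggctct
Ptgs2, chr1:150099781-150100080, + strand: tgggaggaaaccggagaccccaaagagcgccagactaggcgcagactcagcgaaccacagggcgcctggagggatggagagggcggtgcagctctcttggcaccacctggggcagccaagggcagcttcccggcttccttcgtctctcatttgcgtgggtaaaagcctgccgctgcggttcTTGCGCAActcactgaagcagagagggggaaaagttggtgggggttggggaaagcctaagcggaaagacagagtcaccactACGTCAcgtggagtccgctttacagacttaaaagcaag
GAGGAAG starts at position -24 from the gene start in Ptgs1 and at -49 in Hpgds. In Ptgs2, TTGCGCA occurs on both strands at -69 and -68, matches that overlap in 1 palindrome, and TGACGT lies on the reverse strand at 12, so it reads ACGTCA. Searched on both strands of all 32851 promoters of that length, GAGGAAG was present in 13.6%, TGACGT in 7.51% and TTGCGCA in 2.02%. Among the 7 members matched, GAGGAAG was also in Ptgfr, and the other motifs were in Ptgs2 alone. The motifs were picked after these promoters had been read, and a match describes letters, not a bound site.

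Ptgs1, the constitutive cyclooxygenase, was highest in microglia, at 529 CPM in IL34LacZ/LacZ (506 to 553) and 604 CPM in IL34LacZ/+ (573 to 636), with 95% counting intervals in brackets. Fenestrated endothelial cells, the vessels of regions without a blood-brain barrier, came next with 263 CPM in IL34LacZ/LacZ and 303 CPM in IL34LacZ/+, and other BAMs followed with 150.4 CPM in IL34LacZ/LacZ and 153 CPM in IL34LacZ/+. These 3 groups stood apart from each other, since their intervals did not overlap in either library. Below them, interferon-high BAMs (100 CPM in IL34LacZ/LacZ and 129 CPM in IL34LacZ/+) and MHC-II-high BAMs (68.7 CPM in IL34LacZ/LacZ and 100.3 CPM in IL34LacZ/+) overlapped their neighbours in at least 1 library, as did neutrophils and venous endothelium. The remaining 11 groups held 2.36 to 38.0 CPM in IL34LacZ/LacZ and 3.27 to 30.5 CPM in IL34LacZ/+. Ptgs1 had a UMI in 73.1% of microglia in IL34LacZ/LacZ and 72.9% in IL34LacZ/+. Median depths over all microglia were 3100.5 UMIs per cell in IL34LacZ/LacZ and 2692 in IL34LacZ/+. Thinned values, here and below, use only cells with at least 2000 UMIs, each cut to 2000. This left out 248 of 1044 microglia in IL34LacZ/LacZ and 258 of 756 in IL34LacZ/+. Of the microglia kept, 59.9% in IL34LacZ/LacZ and 65.9% in IL34LacZ/+ had a Ptgs1 UMI after thinning. The thinned share was 0.450% of choroid plexus epithelial cells in IL34LacZ/LacZ and 0.590% in IL34LacZ/+. Median depths over all cells of that group were 14206 UMIs in IL34LacZ/LacZ and 13925 in IL34LacZ/+.

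The main fenestrated subcluster, led by Plvap and Esm1, held Ptgs1 at 236 CPM in IL34LacZ/LacZ (189 to 292) and 302 CPM in IL34LacZ/+ (262 to 346). A small subcluster led by Prl, a pituitary hormone gene, held 385 CPM in IL34LacZ/LacZ (262 to 546) and 654 CPM in IL34LacZ/+ (79.2 to 2363), from 31 UMIs in 28 cells in IL34LacZ/LacZ and 2 UMIs in 1 cell in IL34LacZ/+. The counting intervals of the pair overlapped in both libraries. The other endothelial groups stood far below: arterial cells had 10.1 CPM in IL34LacZ/LacZ and 8.98 CPM in IL34LacZ/+ and other endothelial cells, mostly capillary in markers, had 17.6 CPM in IL34LacZ/LacZ and 11.4 CPM in IL34LacZ/+. Between the libraries, Ptgs1 in microglia had a ratio of 0.876 (95% counting interval 0.818 to 0.939) (IL34LacZ/LacZ over IL34LacZ/+), off 1 by counting error but inside the 1.5-fold size rule used for calls. In other BAMs the ratio was 0.982 (95% counting interval 0.894 to 1.08).

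Ptgs2, the inducible cyclooxygenase, was concentrated in venous endothelium, at 366 CPM in IL34LacZ/LacZ (325 to 410.1) and 376 CPM in IL34LacZ/+ (334 to 421). The next group, other fibroblasts, held 39.7 CPM in IL34LacZ/LacZ and 51.7 CPM in IL34LacZ/+, apart from venous cells in both libraries. Below it no neighbours in the order were apart in both libraries, among them MHC-II-high BAMs with 38.3 CPM in IL34LacZ/LacZ and 22.5 CPM in IL34LacZ/+ and Mfap4 Gdf10 Cpz fibroblasts with 32.0 CPM in IL34LacZ/LacZ and 26.6 CPM in IL34LacZ/+. Microglia held 6.77 CPM in IL34LacZ/LacZ and 5.05 CPM in IL34LacZ/+. Ptgs2 had a UMI in 50% of venous cells in IL34LacZ/LacZ and 45.7% in IL34LacZ/+, and after thinning in 37.6% in IL34LacZ/LacZ and 35.7% in IL34LacZ/+, against 2.38% of other BAMs in IL34LacZ/LacZ and 1.33% in IL34LacZ/+. The venous group was named from Slc38a5, Vcam1, Nr2f2, Ackr1 and Lcn2, and Ptgs2 had no part in building it.

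Venous Ptgs2 was at like levels in both libraries, whereas most immediate-early genes were not. The ratio of Ptgs2 was 0.974 (95% counting interval 0.826 to 1.15). The list of 13 immediate-early genes was Fos, Fosb, Jun, Junb, Egr1, Ier2, Ier3, Atf3, Nr4a1, Btg2, Zfp36, Klf2 and Dusp1. Of these, 12 were called lower in IL34LacZ/LacZ and 0 were called higher, beside 4.88% of all genes measured in the group called in either direction. Called means a ratio of at least 1.5 or at most its inverse, with a counting interval off 1, for a gene with at least 50 UMIs over both libraries. Fos had 1011 CPM in IL34LacZ/LacZ and 1756 CPM in IL34LacZ/+, Egr1 had 479 CPM in IL34LacZ/LacZ and 933 CPM in IL34LacZ/+ and Nr4a1 had 18.6 CPM in IL34LacZ/LacZ and 78.7 CPM in IL34LacZ/+. With every cell given equal weight the Ptgs2 ratio was 1.33 (1.13 to 1.57). It was 1.19 (0.951 to 1.48) after the 10 cells richest in Ptgs2 were left out of each library. Neither was called. Intervals with equal weight, here and below, are the pooled counting interval scaled to the new ratio. They do not measure the error of the equal-weight ratio. Lower calls of immediate-early genes were not particular to venous cells. In mural cells 12 of 13 were called lower (10.8% of all genes called), and in fenestrated cells 5 of 12 measured (6.86%). In choroid plexus epithelium (5.63%) 5 of 13 were called higher and 1 lower, and in microglia (4.1%) 0 of 13 were called.

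In MHC-II-high BAMs, macrophages rich in antigen-presentation genes, Ptgs2 was called higher in IL34LacZ/LacZ, at 1.70 (95% counting interval 1.10 to 2.68), from 73 UMIs in IL34LacZ/LacZ and 31 UMIs in IL34LacZ/+. Few cells carried it: the 10 richest cells held 79.5% of the Ptgs2 UMIs in IL34LacZ/LacZ and 90.3% in IL34LacZ/+. The call was lost with cells of at least 2000 UMIs, at 1.02 (0.581 to 1.81), with finer clusters, at 1.12 (0.652 to 1.94), and with equal weight per cell, at 1.23 (0.798 to 1.94). Of all genes measured in this group, 6.62% were called, and 5 of the 13 immediate-early genes were called lower with 0 above a ratio of 1. The summed level of the 5 monocyte markers was 772 CPM in IL34LacZ/LacZ and 489 CPM in IL34LacZ/+ there. Monocytes themselves, too few to compare, held 140.4 CPM of Ptgs2 in IL34LacZ/LacZ and 35.0 CPM in IL34LacZ/+. Their part in the result was not tested. In other BAMs the ratio was 1.16 (95% counting interval 0.878 to 1.53). The subcluster led by Cxcl2, Atf3 and Nr4a1 held 44.1 CPM in IL34LacZ/LacZ and 69.8 CPM in IL34LacZ/+, above the 12.4 CPM in IL34LacZ/LacZ and 7.84 CPM in IL34LacZ/+ of the main subcluster.

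Among other fibroblasts, Ptgs2 was at 101 CPM in IL34LacZ/LacZ and 65.2 CPM in IL34LacZ/+ in the subcluster led by Cxcl10 and Ifit genes and at 49.8 CPM in IL34LacZ/LacZ and 84.6 CPM in IL34LacZ/+ in the one led by Atf3 and Fos. A small subcluster led by Lyz2 and C1qc held 50.5 CPM in IL34LacZ/LacZ and 16.3 CPM in IL34LacZ/+, from 22 UMIs in IL34LacZ/LacZ and 3 UMIs in IL34LacZ/+. The subcluster led by Bche and Cyp2f2 held 16.9 CPM in IL34LacZ/LacZ and 23.6 CPM in IL34LacZ/+. The group's ratio was 0.768 (95% counting interval 0.639 to 0.924) and was not called, and the 13 immediate-early genes summed to 8849.7 CPM in IL34LacZ/LacZ and 12390.3 CPM in IL34LacZ/+ there.

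**Figure D1:**
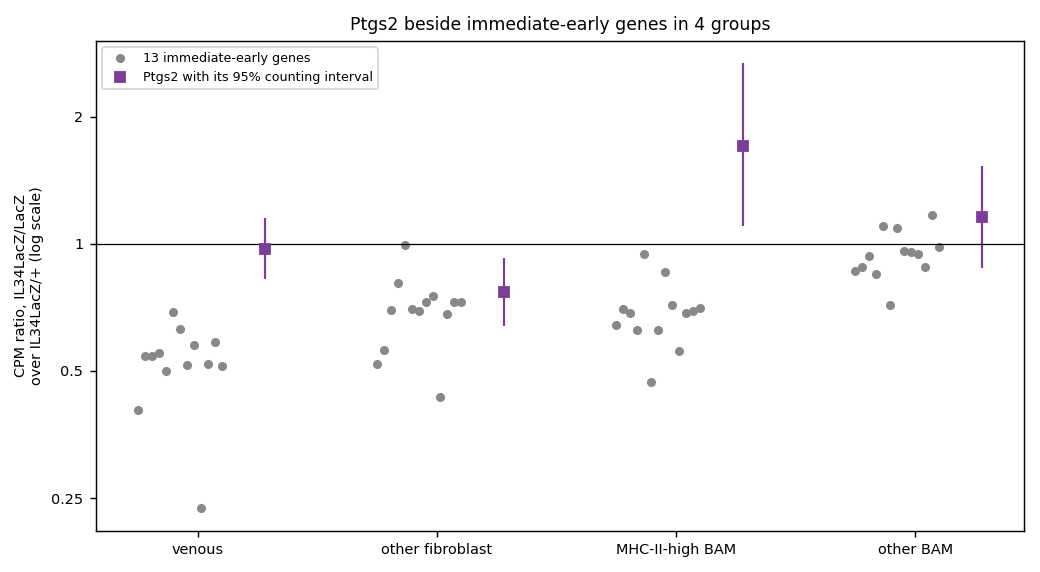
Ratio of CPM in IL34LacZ/LacZ over IL34LacZ/+ (log scale) for Ptgs2 (squares, 95% counting interval) and for each of 13 immediate-early genes (grey points) in 4 groups; the horizontal line marks a ratio of 1. In venous cells Ptgs2 sits at 0.974 above all 13 immediate-early genes, and in MHC-II-high BAMs at 1.70.

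Ptgds, the lipocalin-type prostaglandin D2 synthase, was highest in the Slc7a11 Slc6a13 fibroblasts, which carry barrier solute carriers, at 43965 CPM in IL34LacZ/LacZ (43544 to 44389) and 61662 CPM in IL34LacZ/+ (60945 to 62384). Oligodendrocytes, the myelin-forming cells, held 12237 CPM in IL34LacZ/LacZ and 11876 CPM in IL34LacZ/+, and other fibroblasts held 6817 CPM in IL34LacZ/LacZ and 11471 CPM in IL34LacZ/+. Choroid plexus epithelium followed with 2804 CPM in IL34LacZ/LacZ and 2991 CPM in IL34LacZ/+ and Krtdap Myoc Smoc2 fibroblasts with 2567 CPM in IL34LacZ/LacZ and 752 CPM in IL34LacZ/+. Each of these 5 groups was apart from the one above it in both libraries by its counting interval, and below them no neighbours down to neurons were apart in both. Mfap4 Gdf10 Cpz fibroblasts had 1107 CPM in IL34LacZ/LacZ and 1362 CPM in IL34LacZ/+ and mural cells 1677 CPM in IL34LacZ/LacZ and 385 CPM in IL34LacZ/+. The remaining 11 groups lay at 129 to 539 CPM in IL34LacZ/LacZ and 136 to 510 CPM in IL34LacZ/+.

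Ptgds tags reached every group, which sets what can be read as expression. After thinning to 2000 UMIs, a Ptgds UMI was found in 17.5% of neutrophils in IL34LacZ/LacZ and 17.5% in IL34LacZ/+, and in 30.2% of microglia in IL34LacZ/LacZ and 29.1% in IL34LacZ/+. It was found in 98% of choroid plexus epithelial cells in IL34LacZ/LacZ and 99.1% in IL34LacZ/+, with a cell median of 24.6 Ptgds UMIs per 10000 in IL34LacZ/LacZ and 28.3 in IL34LacZ/+. The 90th percentile there was 45.9 per 10000 in IL34LacZ/LacZ and 48.3 in IL34LacZ/+. In Slc7a11 Slc6a13 fibroblasts the cell median was 29.2 per 10000 in IL34LacZ/LacZ and 40.5 in IL34LacZ/+, and the 90th percentile was 1082 in IL34LacZ/LacZ and 1673 in IL34LacZ/+. Ptgds was thus spread more evenly over choroid plexus cells than over these fibroblasts.

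A minority of very high cells held most fibroblast Ptgds. Cells with at least 100 Ptgds UMIs per 10000, a limit set after the spread over cells was seen, were 138 of 348 Slc7a11 Slc6a13 fibroblasts (39.7%, 95% Clopper-Pearson interval 34.5 to 45.0%) in IL34LacZ/LacZ and 79 of 189 (41.8%, 34.7 to 49.2%) in IL34LacZ/+. They held 98.1% of that group's Ptgds UMIs in IL34LacZ/LacZ and 98.5% in IL34LacZ/+, and the remaining cells stood at 1569 CPM in IL34LacZ/LacZ and 1760.2 CPM in IL34LacZ/+. Among oligodendrocytes 76 cells (44.2%) in IL34LacZ/LacZ and 43 cells (44.8%) in IL34LacZ/+ passed the limit, but the others still held 2946 CPM in IL34LacZ/LacZ and 2579.9 CPM in IL34LacZ/+. Among other fibroblasts the share was 14% (11.8 to 16.3%) in IL34LacZ/LacZ and 18.7% (16.0 to 21.6%) in IL34LacZ/+. Near the limit, between 50 and 200 per 10000, lay 52 Slc7a11 Slc6a13 fibroblasts in IL34LacZ/LacZ and 25 in IL34LacZ/+, so the limit does not fall in a gap. Whether the high cells form a type of their own was not tested.

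**Figure D2:**
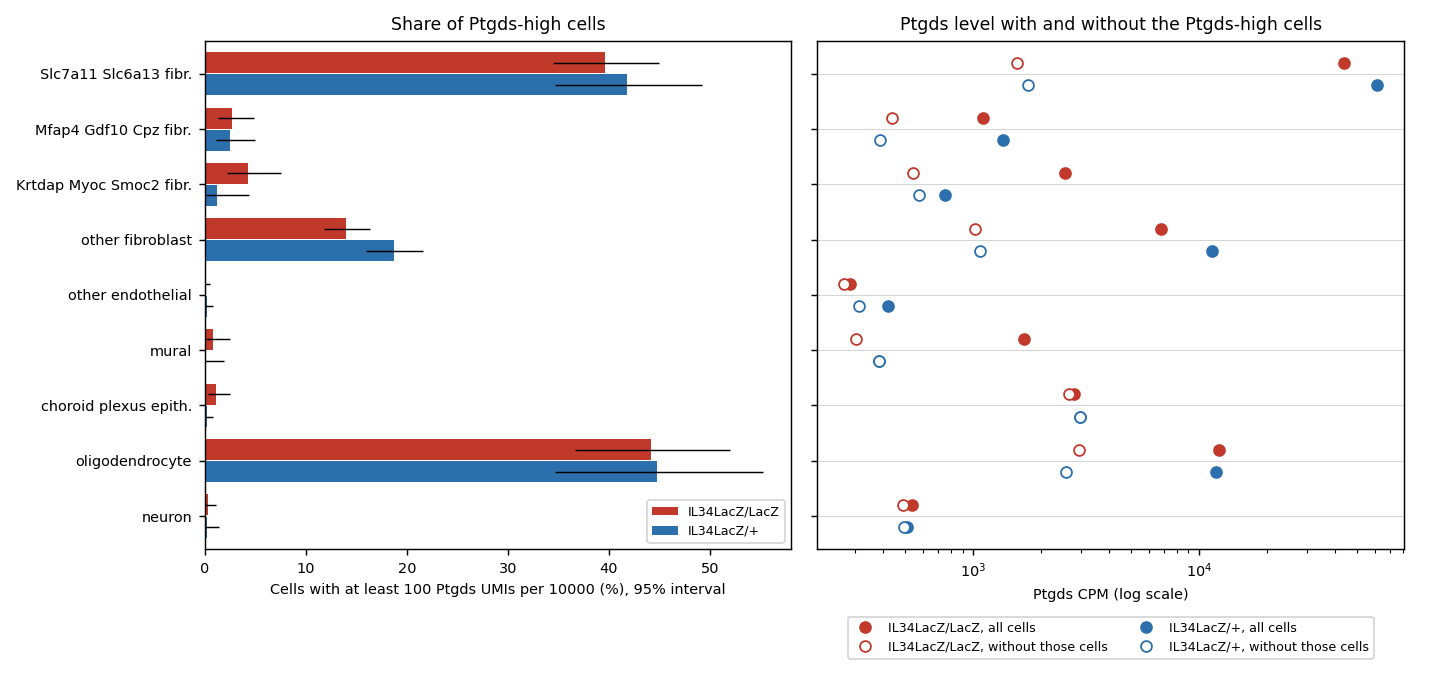
Left, the share of cells (%) with at least 100 Ptgds UMIs per 10000 in 9 groups, bars with 95% Clopper-Pearson intervals; right, Ptgds CPM (log scale) over all cells (filled) and without those cells (open). Without the high cells, Slc7a11 Slc6a13 fibroblasts sit at 1569 CPM in IL34LacZ/LacZ and 1760.2 CPM in IL34LacZ/+, and Krtdap Myoc Smoc2 fibroblasts at 542 CPM in IL34LacZ/LacZ and 579 CPM in IL34LacZ/+.

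The Ptgds-high cells differed from the rest of their group in other genes, in both libraries. In Slc7a11 Slc6a13 fibroblasts, Nnat stood at 1017 CPM in the Ptgds-high cells and 73.9 CPM in the others in IL34LacZ/LacZ, and at 679 CPM against 33.8 CPM in IL34LacZ/+. The genes highest in these cells by the smaller difference of both libraries were Nnat, Ranbp3l, Alcam (an adhesion molecule), Wnt4 (a secreted Wnt ligand), Nsa2, Mpp6, Gjb6 (a connexin) and Aebp1. The lowest were Il33, Tgfbi, Igfbp7, Emp1, Tm4sf1, Spp1, Cdk8 and Bgn. The fibroblast marker list summed to 10954 CPM in the high cells and 17746 CPM in the others in IL34LacZ/LacZ, and to 9553 CPM against 16462 CPM in IL34LacZ/+, so the high cells kept fibroblast transcripts at a lower level. The barrier-type carrier list was at 8354 CPM in the high cells and 8076 CPM in the others in IL34LacZ/LacZ, and at 7624 CPM against 7771 CPM in IL34LacZ/+. For single genes compared between Ptgds-high and other cells, here and in the next paragraph, Ptgds was left out of the total. Both marker list sums kept Ptgds in the total. Ptgds takes a large share of the high cells' UMIs, which lowers these sums there. The genes were chosen after their values were seen, so they are a description.

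Among other fibroblasts, Cdkn1c stood at 806 CPM in the Ptgds-high cells and 283 CPM in the others in IL34LacZ/LacZ, and at 903 CPM against 381 CPM in IL34LacZ/+. Agr2, Mkx, Plxnc1, Adgrv1, Gpm6b, Ramp1 (a receptor-activity-modifying protein) and Paxx were the other genes highest in the high cells, and the interferon-induced genes Cxcl10, Ifit1, Ifit3 and Iigp1 were among the lowest, with Igfbp4, Gucy1a1, Tagln and Krtdap. For instance, Ifit1 stood at 24.6 CPM in the Ptgds-high cells and 361 CPM in the others in IL34LacZ/LacZ, and at 29.3 CPM against 168 CPM in IL34LacZ/+. Other fibroblasts pool several subclusters. In IL34LacZ/LacZ the subcluster led by Cxcl10 and Ifit genes held 1253 CPM of Ptgds. The one led by Bche and Cyp2f2 held 9440 CPM there, and the one led by Atf3 and Fos 6250 CPM. The part of subclusters in these gene differences was not tested. In oligodendrocytes the split ran along known subtype genes: Klk6 stood at 8.40 CPM in the Ptgds-high cells and 341 CPM in the others in IL34LacZ/LacZ, and at 0 CPM against 312 CPM in IL34LacZ/+. Il33 stood at 1089.6 CPM in the Ptgds-high cells and 508 CPM in the others in IL34LacZ/LacZ, and at 1281 CPM against 535 CPM in IL34LacZ/+. Opalin stood at 1108 CPM in the Ptgds-high cells and 585 CPM in the others in IL34LacZ/LacZ, and at 1348 CPM against 626 CPM in IL34LacZ/+. Il33 thus went with high Ptgds in oligodendrocytes and with low Ptgds in Slc7a11 Slc6a13 fibroblasts, where Il33 stood at 140.2 CPM in the Ptgds-high cells and 459 CPM in the others in IL34LacZ/LacZ, and at 103 CPM against 427 CPM in IL34LacZ/+.

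**Figure D3:**
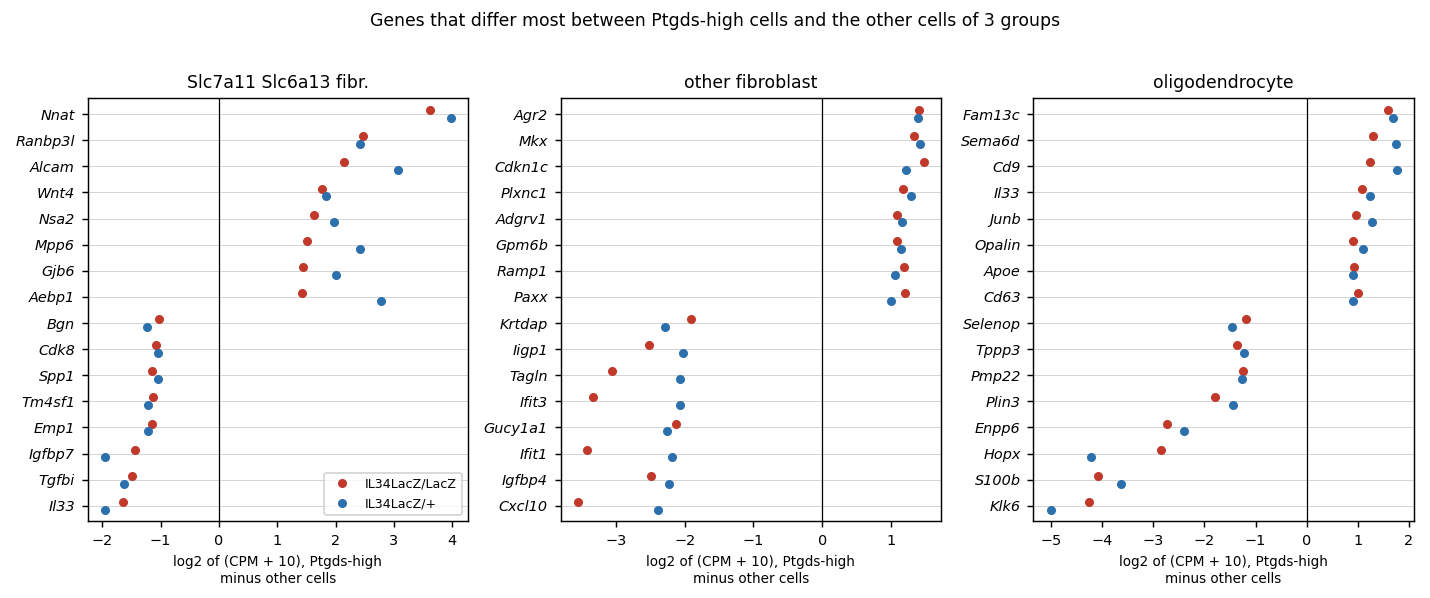
Difference in log2 of (CPM + 10) between Ptgds-high cells and the other cells of 3 groups, per library, for the 8 genes most raised and the 8 most lowered in both libraries. Points right of 0 are higher in Ptgds-high cells: Nnat at 3.61 in IL34LacZ/LacZ and 3.97 in IL34LacZ/+, and Klk6 at -4.25 in IL34LacZ/LacZ and -5.01 in IL34LacZ/+.

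Between the libraries, Ptgds was called in 5 of 18 groups, beside 5.09% of all gene and group pairs measured, and the calls in which it was higher rested on few cells. In Krtdap Myoc Smoc2 fibroblasts the ratio was 3.41 (95% counting interval 3.19 to 3.66), from 11 Ptgds-high cells in IL34LacZ/LacZ and 2 in IL34LacZ/+; without these the group stood at 542 CPM in IL34LacZ/LacZ and 579 CPM in IL34LacZ/+. In mural cells the ratio was 4.35 (95% counting interval 3.75 to 5.08), and 3 cells in IL34LacZ/LacZ held 82.5% of the UMIs against 0 such cells in IL34LacZ/+, leaving 304 CPM in IL34LacZ/LacZ and 385 CPM in IL34LacZ/+. Those 3 cells had 3142 CPM of the fibroblast marker list, against 666 CPM in the other mural cells of IL34LacZ/LacZ. Without the 10 richest cells of each library the ratios were 1.36 (1.23 to 1.52) and 1.27 (0.972 to 1.66), and neither was called; with a mitochondrial limit of 20% the Krtdap ratio was 1.42 (1.33 to 1.51). It was 2.04 at resolution 2, and the mural ratio was 2.57 at a mitochondrial limit of 20%, 2.80 with equal weights and 6.69 after thinning. Of all genes measured, 4.47% were called in Krtdap Myoc Smoc2 fibroblasts and 10.8% in mural cells.

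Ptgds was called lower in IL34LacZ/LacZ in other fibroblasts, arterial cells and fenestrated cells. In other fibroblasts the ratio was 0.594 (95% counting interval 0.587 to 0.602) with 14% Ptgds-high cells in IL34LacZ/LacZ and 18.7% in IL34LacZ/+, and the remaining cells were close, at 1019 CPM in IL34LacZ/LacZ and 1071 CPM in IL34LacZ/+; 3.81% of genes were called there. That call was lost under 5 of 15 alternatives, at ratios up to 0.749. In arterial cells (3.42% of genes called) the ratio was 0.622 (95% counting interval 0.514 to 0.751), and 0.949 (0.744 to 1.21) without the 10 richest cells of each library, 1 of 6 alternatives out of 15 that ended the call. In fenestrated cells (6.86% called) it was 0.546 (95% counting interval 0.396 to 0.743) and stayed called under all 15 alternatives, from 57 UMIs in IL34LacZ/LacZ and 161 UMIs in IL34LacZ/+. With doublets kept it was 0.246 (0.185 to 0.323). Choroid plexus epithelial markers, a gauge of free RNA in cells that do not make them, summed to 2425 CPM in IL34LacZ/LacZ and 4347 CPM in IL34LacZ/+ in arterial cells and to 2376 CPM in IL34LacZ/LacZ and 7129 CPM in IL34LacZ/+ in fenestrated cells. Their part in these low-level differences was not tested. In Slc7a11 Slc6a13 fibroblasts the ratio of 0.713 (95% counting interval 0.702 to 0.724) was not called. It was called lower under 4 alternatives, at 0.660 at a mitochondrial limit of 5%, 0.651 with at least 2000 UMIs per cell, 0.654 with doublets kept and 0.659 after thinning. In oligodendrocytes the ratio was 1.03 (95% counting interval 1.002 to 1.06).

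Hpgds, the haematopoietic prostaglandin D2 synthase, marked the macrophage lineage. Microglia had 919 CPM in IL34LacZ/LacZ (889 to 951) and 916 CPM in IL34LacZ/+ (878 to 955). Other BAMs had 654 CPM in IL34LacZ/LacZ and 615 CPM in IL34LacZ/+, interferon-high BAMs 522 CPM in IL34LacZ/LacZ and 520.1 CPM in IL34LacZ/+ and MHC-II-high BAMs 341 CPM in IL34LacZ/LacZ and 340.1 CPM in IL34LacZ/+. Each step of this order was apart from the one above in both libraries, and so was the drop to neutrophils at 56.6 CPM in IL34LacZ/LacZ and 53.1 CPM in IL34LacZ/+. The remaining 13 groups held 7.28 to 39.2 CPM in IL34LacZ/LacZ and 5.41 to 41.2 CPM in IL34LacZ/+. Thinned to 2000 UMIs, a UMI was found in 80.4% of microglia in IL34LacZ/LacZ and 80.9% in IL34LacZ/+ and in 46.9% of MHC-II-high BAMs in IL34LacZ/LacZ and 44.3% in IL34LacZ/+, against 0.676% of choroid plexus epithelial cells in IL34LacZ/LacZ and 1.30% in IL34LacZ/+. Mast cells also make Hpgds, and 0 BAMs in IL34LacZ/LacZ and 1 BAM in IL34LacZ/+ held 2 or more UMIs of the 6 mast cell and basophil markers. Within MHC-II-high BAMs, a subcluster led by Chil3 and Lpl held 500.5 CPM in IL34LacZ/LacZ and 561 CPM in IL34LacZ/+, above the 326 CPM in IL34LacZ/LacZ and 326 CPM in IL34LacZ/+ of the subcluster led by H2-Eb1 and Ccr2.

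In the macrophage lineage Hpgds was close to equal between the libraries. The ratio was 1.004 (95% counting interval 0.951 to 1.06) in microglia, 1.06 (95% counting interval 1.02 to 1.11) in other BAMs, 1.003 (95% counting interval 0.838 to 1.2) in interferon-high BAMs and 1.004 (95% counting interval 0.890 to 1.13) in MHC-II-high BAMs. Over 15 alternatives the microglia ratio stayed between 0.989 and 1.04. The calls for Hpgds lay outside this lineage at low levels. In other endothelial cells (3.49% of genes called) Hpgds was higher in IL34LacZ/LacZ, at 39.2 CPM in IL34LacZ/LacZ and 17.7 CPM in IL34LacZ/+, a ratio of 2.21 (95% counting interval 1.52 to 3.26). In choroid plexus epithelium (5.63% called) it was higher in IL34LacZ/LacZ, at 12 CPM in IL34LacZ/LacZ and 7.35 CPM in IL34LacZ/+, a ratio of 1.64 (95% counting interval 1.22 to 2.20). In neurons (6.87% called) it was lower in IL34LacZ/LacZ, at 26.8 CPM in IL34LacZ/LacZ and 41.2 CPM in IL34LacZ/+, a ratio of 0.649 (95% counting interval 0.444 to 0.955). The BAM marker list moved the same way, at 326 CPM in IL34LacZ/LacZ and 198 CPM in IL34LacZ/+ in other endothelial cells, 53.2 CPM in IL34LacZ/LacZ and 35.3 CPM in IL34LacZ/+ in choroid plexus epithelium and 208 CPM in IL34LacZ/LacZ and 259 CPM in IL34LacZ/+ in neurons. The microglia marker list moved the other way in other endothelial cells, at 1881 CPM in IL34LacZ/LacZ and 2099 CPM in IL34LacZ/+. In choroid plexus epithelium it moved as Hpgds did, at 372 CPM in IL34LacZ/LacZ and 335 CPM in IL34LacZ/+. In neurons it did so too, at 271 CPM in IL34LacZ/LacZ and 289 CPM in IL34LacZ/+. The part of either list in these ratios was not tested. For each UMI of C1qa, a gene of the same cells, the Hpgds UMIs were 0.106 in IL34LacZ/LacZ and 0.102 in IL34LacZ/+ in microglia and 0.0863 in IL34LacZ/LacZ and 0.0768 in IL34LacZ/+ in other BAMs. The same quotient was 0.0976 in IL34LacZ/LacZ and 0.0936 in IL34LacZ/+ in choroid plexus epithelium, 0.147 in IL34LacZ/LacZ and 0.104 in IL34LacZ/+ in other endothelial cells and 0.130 in IL34LacZ/LacZ and 0.237 in IL34LacZ/+ in neurons. A subcluster of other endothelial cells led by Ctss and C1q genes held 273 CPM of Hpgds in IL34LacZ/LacZ and 154 CPM in IL34LacZ/+. The endothelial call ended after thinning, at 1.45 (0.814 to 2.64). Thinning left out 642 of 1122 other endothelial cells in IL34LacZ/LacZ and 672 of 1115 in IL34LacZ/+. The choroid plexus call ended at a mitochondrial limit of 5%, at 1.21 (0.744 to 1.95), and with equal weights, at 1.26 (0.935 to 1.69), and the neuron call ended in 7 of 14 alternatives, at ratios up to 0.795.

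Ptgs1 and Hpgds, the steps that lead to prostaglandin D2, were found together in single macrophages. Both had a UMI in 66.6% of microglia in IL34LacZ/LacZ and 64.9% in IL34LacZ/+, and in 32.5% of all BAMs in IL34LacZ/LacZ and 31.2% in IL34LacZ/+. Microglia with a Ptgs1 UMI had Hpgds in 91.1% of cells in IL34LacZ/LacZ and 89.1% in IL34LacZ/+, and those without had it in 79.4% in IL34LacZ/LacZ and 72.7% in IL34LacZ/+. The cells with Ptgs1 were also deeper, with a median of 3448 UMIs against 2202 in IL34LacZ/LacZ and 3264 against 1692 in IL34LacZ/+, and the part of depth was not tested.

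Ptges, the inducible microsomal prostaglandin E synthase, was a fibroblast gene in these libraries. Mfap4 Gdf10 Cpz fibroblasts had 112 CPM in IL34LacZ/LacZ (100 to 124) and 118 CPM in IL34LacZ/+ (104 to 132) and other fibroblasts 115 CPM in IL34LacZ/LacZ and 104 CPM in IL34LacZ/+, which overlapped. Krtdap Myoc Smoc2 fibroblasts, at 74.9 CPM in IL34LacZ/LacZ and 76.5 CPM in IL34LacZ/+, were below these in both libraries, and Slc7a11 Slc6a13 fibroblasts, at 84.4 CPM in IL34LacZ/LacZ and 65.3 CPM in IL34LacZ/+, overlapped the Krtdap group. Mural cells (39.0 CPM in IL34LacZ/LacZ and 23.5 CPM in IL34LacZ/+), other endothelial cells (25.3 CPM in IL34LacZ/LacZ and 23.6 CPM in IL34LacZ/+) and venous cells (21.1 CPM in IL34LacZ/LacZ and 16.8 CPM in IL34LacZ/+) came next. After thinning, a Ptges UMI was in 22.2% of Mfap4 Gdf10 Cpz fibroblasts in IL34LacZ/LacZ and 21.0% in IL34LacZ/+, against 0.353% of other BAMs in IL34LacZ/LacZ and 0.189% in IL34LacZ/+. In BAMs it was low, and other BAMs held 2.33 CPM in IL34LacZ/LacZ and 1.42 CPM in IL34LacZ/+. Interferon-high BAMs held 0 CPM in IL34LacZ/LacZ and 22.4 CPM in IL34LacZ/+, the latter from 16 UMIs in 1 cell. The Poisson interval of the count of 0 reaches 9.97 CPM. None of the 5 groups measured was called between libraries by the size rule, with ratios from 0.948 in Mfap4 Gdf10 Cpz fibroblasts to 1.29 in Slc7a11 Slc6a13 fibroblasts.

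Ptgis, prostacyclin synthase, shared the fibroblast pattern and added vessels. Mfap4 Gdf10 Cpz fibroblasts had 348 CPM in IL34LacZ/LacZ (328 to 370.2) and 384 CPM in IL34LacZ/+ (359 to 410) and Krtdap Myoc Smoc2 fibroblasts 329 CPM in IL34LacZ/LacZ and 336 CPM in IL34LacZ/+, not apart in both libraries. Other fibroblasts (189 CPM in IL34LacZ/LacZ and 172 CPM in IL34LacZ/+) and then Slc7a11 Slc6a13 fibroblasts (100.2 CPM in IL34LacZ/LacZ and 58.8 CPM in IL34LacZ/+) were each apart from the group above. Venous cells, at 50.9 CPM in IL34LacZ/LacZ and 89.0 CPM in IL34LacZ/+, overlapped the last of these, and arterial cells, at 22.8 CPM in IL34LacZ/LacZ and 30.9 CPM in IL34LacZ/+, were apart from venous cells. Thinned to 2000 UMIs, a UMI was in 45.8% of Mfap4 Gdf10 Cpz fibroblasts in IL34LacZ/LacZ and 47.2% in IL34LacZ/+ and in 6.04% of venous cells in IL34LacZ/LacZ and 16.8% in IL34LacZ/+, against 0.883% of other BAMs in IL34LacZ/LacZ and 0.758% in IL34LacZ/+. Without thinning, both Ptgis and Ptges had a UMI in 42.2% of Mfap4 Gdf10 Cpz fibroblasts in IL34LacZ/LacZ and 41.3% in IL34LacZ/+. Also without thinning, Ptgis was in 298 and Ptges in 180 of 370 cells in IL34LacZ/LacZ, and in 239 and 162 of 315 in IL34LacZ/+. The cells with a Ptgis UMI were deeper, with a median of 7650.5 UMIs against 4960.5 in IL34LacZ/LacZ and 7805 against 4249 in IL34LacZ/+. The part of depth was not tested.

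Ptgis was called between libraries in 2 of the 7 groups measured, in opposite directions, beside 5.09% of all gene and group pairs. It was lower in IL34LacZ/LacZ in venous cells (4.88% of genes called), at 0.571 (95% counting interval 0.378 to 0.853) from 41 UMIs in IL34LacZ/LacZ and 69 UMIs in IL34LacZ/+. The share of venous cells with a UMI was 13.2% (8.70 to 18.8%) in IL34LacZ/LacZ, 25 of 190 cells, and 26.3% (19.9 to 33.5%) in IL34LacZ/+, 46 of 175 cells, at like median depths of 3456 UMIs in IL34LacZ/LacZ and 3644 in IL34LacZ/+. This call held under all 13 alternatives that gave a value, at ratios from 0.375 to 0.648. It was higher in IL34LacZ/LacZ in Slc7a11 Slc6a13 fibroblasts (4.34% of genes called), at 1.70 (95% counting interval 1.10 to 2.72) from 95 UMIs in IL34LacZ/LacZ and 27 UMIs in IL34LacZ/+. There the ratio was 1.14 (0.890 to 1.47) with doublets kept, 1.34 (0.723 to 2.62) at a mitochondrial limit of 5% and 1.48 (0.870 to 2.66) with at least 2000 UMIs per cell, none of them called, and 3.02 (1.59 to 6.31), still called, without the 10 richest cells of each library. Those 10 cells were a larger part of the 189 Slc7a11 Slc6a13 fibroblasts in IL34LacZ/+ than of the 348 in IL34LacZ/LacZ. In Mfap4 Gdf10 Cpz fibroblasts, where the level was highest, the ratio was 0.907 (95% counting interval 0.829 to 0.993).

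Ptger4, the EP4 receptor, was a BAM gene and scarcely a microglial gene. MHC-II-high BAMs had 76.6 CPM in IL34LacZ/LacZ (64.7 to 90.1) and 51.6 CPM in IL34LacZ/+ (40.3 to 65.1), interferon-high BAMs 54.1 CPM in IL34LacZ/LacZ and 40.7 CPM in IL34LacZ/+ and other BAMs 42.5 CPM in IL34LacZ/LacZ and 41.5 CPM in IL34LacZ/+. None of these was apart from its neighbour in both libraries. Microglia held 3.52 CPM in IL34LacZ/LacZ and 2.95 CPM in IL34LacZ/+, from 13 UMIs in IL34LacZ/LacZ and 7 UMIs in IL34LacZ/+. Fenestrated cells had 34.0 CPM in IL34LacZ/LacZ and 19.1 CPM in IL34LacZ/+, neutrophils 21.6 CPM in IL34LacZ/LacZ and 11.8 CPM in IL34LacZ/+ and mural cells 12.6 CPM in IL34LacZ/LacZ and 7.82 CPM in IL34LacZ/+. The other 11 groups lay at 0 to 3.16 CPM in IL34LacZ/LacZ and 0 to 6.53 CPM in IL34LacZ/+. Thinned to 2000 UMIs, a Ptger4 UMI was in 13.2% of MHC-II-high BAMs in IL34LacZ/LacZ and 6.14% in IL34LacZ/+, against 0.754% of microglia in IL34LacZ/LacZ and 0.602% in IL34LacZ/+. Among other BAMs it varied by subcluster, with 10.3 CPM in IL34LacZ/LacZ and 13.1 CPM in IL34LacZ/+ in the subcluster led by Cd209b and Cd28 and 84.4 CPM in IL34LacZ/LacZ and 105 CPM in IL34LacZ/+ in the one led by Cxcl2 and Atf3. A smaller subcluster with endothelial transcripts (led by Flt1 and Slco1a4) held 97.3 CPM in IL34LacZ/LacZ and 70.4 CPM in IL34LacZ/+, from 31 UMIs in IL34LacZ/LacZ and 15 UMIs in IL34LacZ/+. In MHC-II-high BAMs the ratio was 1.48 (95% counting interval 1.11 to 2.0), just short of the size rule. It was called higher under 4 of 9 alternatives. An example was 1.99 (1.34 to 3.01) without the 10 richest cells of each library, out of 356 in IL34LacZ/LacZ and 272 in IL34LacZ/+. Monocyte markers were at 772 CPM in IL34LacZ/LacZ and 489 CPM in IL34LacZ/+ in this group, and monocytes held 53.4 CPM of Ptger4 in IL34LacZ/LacZ and 65.7 CPM in IL34LacZ/+. Their part in the ratio was not tested. In other BAMs the ratio was 1.02 (95% counting interval 0.854 to 1.23).

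Ptgfr, the FP receptor, was highest in the Slc7a11 Slc6a13 fibroblasts, at 129.8 CPM in IL34LacZ/LacZ (108 to 155) and 95.8 CPM in IL34LacZ/+ (69.6 to 129). Mural cells followed with 26.4 CPM in IL34LacZ/LacZ and 11.7 CPM in IL34LacZ/+, apart from the group above in both libraries, and the other 16 groups had 0 to 6.66 CPM in IL34LacZ/LacZ and 0 to 5.58 CPM in IL34LacZ/+. A UMI was found in 25.3% of Slc7a11 Slc6a13 fibroblasts in IL34LacZ/LacZ and 17.5% in IL34LacZ/+, and after thinning in 20.1% in IL34LacZ/LacZ and 14.3% in IL34LacZ/+. Microglia had 1 UMI in IL34LacZ/LacZ and 0 UMIs in IL34LacZ/+, for which a 1-sided limit of 3 UMIs is 1.26 CPM. The same group was the richest in Ptgds. In IL34LacZ/LacZ, Ptgfr was in 22.6% of its cells with a Ptgds UMI and 35.1% of those without. In IL34LacZ/+ it was in 16.3% against 22.2%. The cells without were few, since 274 of 348 cells in IL34LacZ/LacZ and 153 of 189 in IL34LacZ/+ had a Ptgds UMI. Ptgds tags reached every group, so a single UMI need not mark a cell that makes it. The difference was not tested. The library ratio of Ptgfr was 1.35 (95% counting interval 0.953 to 1.96), not called. It was 1.92 (1.21 to 3.17) and called higher without the 10 richest cells of each library. Those 10 came from 88 cells with a Ptgfr UMI in IL34LacZ/LacZ and 33 in IL34LacZ/+. The cut thus took a larger part of these cells in IL34LacZ/+, which itself raises the ratio.

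**Figure D4:**
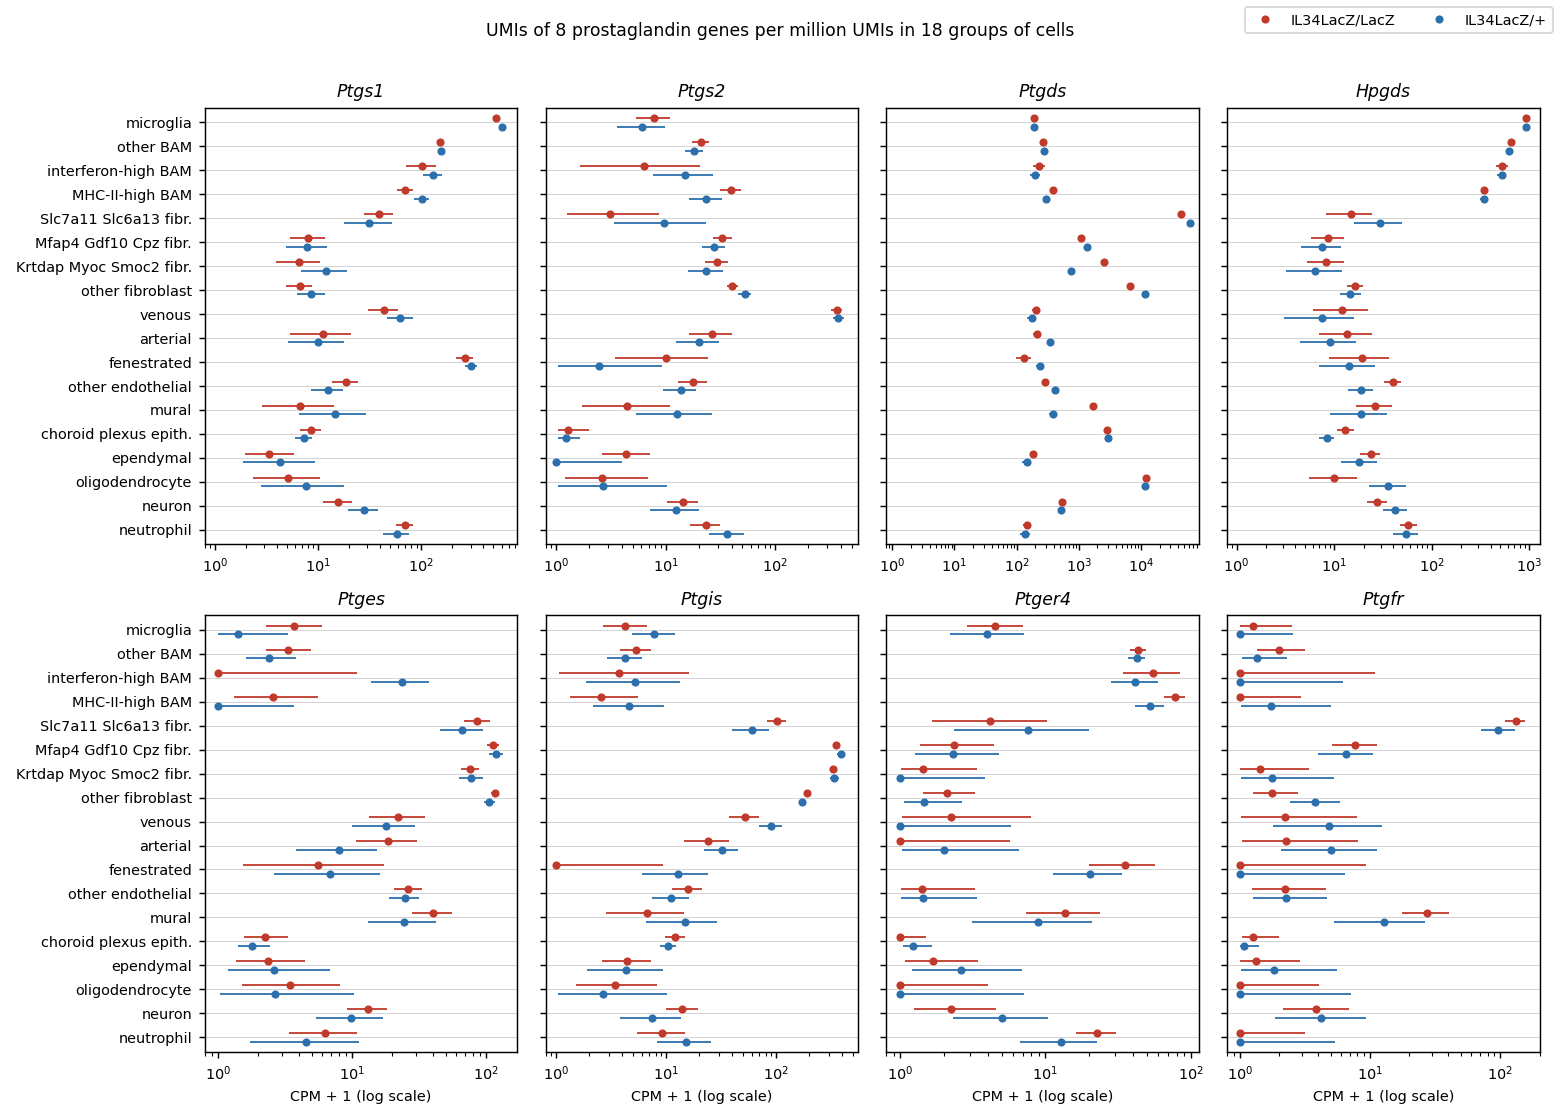
CPM + 1 (log scale) of the 8 genes in 18 groups, IL34LacZ/LacZ and IL34LacZ/+ as separate points with 95% counting intervals. By the mean of both libraries, Ptgs1 and Hpgds lead in microglia, Ptgs2 in venous cells, Ptgds and Ptgfr in Slc7a11 Slc6a13 fibroblasts, Ptges and Ptgis in Mfap4 Gdf10 Cpz fibroblasts and Ptger4 in MHC-II-high BAMs. For Ptges, Ptgis and Ptger4 the leading group and the next were not apart in both libraries. In IL34LacZ/LacZ, Ptges was higher in other fibroblasts.

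The other genes of the pathway, 33 of 34 listed symbols that the tables hold, filled in the route around the members. For arachidonate release, the cytosolic phospholipase Pla2g4a was highest in venous cells, at 258 CPM in IL34LacZ/LacZ and 316 CPM in IL34LacZ/+, the same group as Ptgs2. Mgll, the lipase that frees arachidonate from a monoacylglycerol, led in fenestrated cells at 635 CPM in IL34LacZ/LacZ and 936 CPM in IL34LacZ/+. Pla2g2d led in interferon-high BAMs at 119 CPM in IL34LacZ/LacZ and 178 CPM in IL34LacZ/+ and other BAMs at 110.4 CPM in IL34LacZ/LacZ and 116 CPM in IL34LacZ/+. Among further synthases, Tbxas1 (thromboxane synthase) was at 136 CPM in IL34LacZ/LacZ and 132 CPM in IL34LacZ/+ in other BAMs and 129 CPM in IL34LacZ/LacZ and 122 CPM in IL34LacZ/+ in microglia. Cbr2, a carbonyl reductase used here also as a BAM marker, was at 566 CPM in IL34LacZ/LacZ and 523 CPM in IL34LacZ/+ in other BAMs. Ptges3, a co-chaperone with synthase activity, peaked in ependymal cells at 788 CPM in IL34LacZ/LacZ and 779.7 CPM in IL34LacZ/+. Of the breakdown genes, Hpgd, the 15-hydroxyprostaglandin dehydrogenase, was high in other BAMs at 972 CPM in IL34LacZ/LacZ and 1043 CPM in IL34LacZ/+ and in microglia at 833 CPM in IL34LacZ/LacZ and 846 CPM in IL34LacZ/+. The carriers divided by vessel type, with Abcc4 at 194 CPM in IL34LacZ/LacZ and 173 CPM in IL34LacZ/+ in other endothelial cells and Slco2a1 at 59.0 CPM in IL34LacZ/LacZ and 51.5 CPM in IL34LacZ/+ in fenestrated cells.

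Among the other receptors, Ptgdr (DP1, for prostaglandin D2) was a fibroblast gene, at 148 CPM in IL34LacZ/LacZ and 149 CPM in IL34LacZ/+ in other fibroblasts and 121 CPM in IL34LacZ/LacZ and 117 CPM in IL34LacZ/+ in Mfap4 Gdf10 Cpz fibroblasts. Ptger1 was at 38.0 CPM in IL34LacZ/LacZ and 30.5 CPM in IL34LacZ/+ in Mfap4 Gdf10 Cpz fibroblasts. Tbxa2r, the thromboxane receptor, was at 306 CPM in IL34LacZ/LacZ and 289.9 CPM in IL34LacZ/+ in fenestrated cells and 185 CPM in IL34LacZ/LacZ and 168 CPM in IL34LacZ/+ in mural cells. Ptger2, Ptger3, Ptgdr2 and Ptgir stayed low in all 18 groups, and the highest of their levels was Ptger3 in mural cells at 10.3 CPM in IL34LacZ/LacZ and 1.96 CPM in IL34LacZ/+. The leukotriene branch, which competes for arachidonate, was mostly macrophage. Ltc4s was at 849 CPM in IL34LacZ/LacZ and 928 CPM in IL34LacZ/+ in other BAMs, Alox5ap at 584 CPM in IL34LacZ/LacZ and 576 CPM in IL34LacZ/+ in MHC-II-high BAMs and Cysltr1 at 201 CPM in IL34LacZ/LacZ and 188 CPM in IL34LacZ/+ in microglia. Alox5 itself was highest in interferon-high BAMs, at 40.5 CPM in IL34LacZ/LacZ and 33.6 CPM in IL34LacZ/+.

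Between libraries the pathway genes were called in 15 of 230 measured pairs of gene and group (6.52%), 8 higher and 7 lower in IL34LacZ/LacZ, beside 5.09% of all such pairs in the tables. In other BAMs 0 of 21 measured pathway genes were called, with a median ratio of 0.973 beside 1.03 over all 9965 genes measured and 2.68% called. In microglia 0 of 17 were called, with a median ratio of 0.982 beside 1.004 and 4.1% called. In MHC-II-high BAMs (6.62% of genes called in either direction) 2 of 15 were called, both lower, Hpgd at 0.664 (95% counting interval 0.612 to 0.720) and Cbr2 at 0.611 (95% counting interval 0.524 to 0.711), both genes that are higher in other BAMs. In venous cells (4.88% called) Slco2a1, a prostaglandin uptake carrier, was lower at 0.522 (95% counting interval 0.282 to 0.937), the only one of 8 called. In neutrophils (9.62% of genes called) Hpgd and Alox5 were higher and Ptgr1 lower, and mast cell and basophil markers summed to 539 CPM in IL34LacZ/LacZ and 35.4 CPM in IL34LacZ/+ there. Their part was not tested.

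Across the 36 points of 18 groups in 2 libraries, the genes whose log2 (CPM + 1) followed each member most closely, by Pearson's r among 15577 genes, were as follows. Hpgds went with Csf1r, the receptor for interleukin-34, at an r of 0.98, with the complement gene C1qa at 0.98 and with Fcrls at 0.98. Csf1r stood at 3087 CPM in IL34LacZ/LacZ and 3084 CPM in IL34LacZ/+ in microglia and at 2042 CPM in IL34LacZ/LacZ and 1902 CPM in IL34LacZ/+ in other BAMs, the same order as Hpgds. Ptgs1 went with Plekho1 (0.90), Tpbgl (0.89) and Inpp5d (0.88), and Ptgs2 with Clint1 (0.85), Mknk2 (0.75) and the phospholipase Pla2g4a (0.74). Ptgis went with Angptl4 (0.91), Hdlbp (0.90) and Nrk (0.87), and Ptges with Foxc1 (0.90), Fzd1 (0.89) and Fstl1 (0.89). Ptgds had looser partners in Rnf43 (0.82), Adcy5 (0.80) and Plekhf1 (0.80). The receptors went with Ifi211 (0.89), Cmah (0.87) and Ifi204 (0.85) for Ptger4, and with Marchf6 (0.88), Tmem132c (0.88) and Gm43022 (0.87) for Ptgfr. Among the members the closest pairs were Ptgis with Ptges, at 0.82, and Ptgs1 with Hpgds, at 0.71. Points of a library share its preparation and free RNA, so these are descriptions with no test.

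Over all members and groups, 63 of 144 pairs had enough UMIs to be measured and 12 were called, 6 higher and 6 lower in IL34LacZ/LacZ. That is 19% of the pairs, beside 5.09% of the 130985 gene and group pairs in the tables (3.01% higher and 2.07% lower). The members hold 5 of these calls through Ptgds, whose UMIs cluster in few cells, so a counting interval is too narrow for it. The other calls were 3 of 10 pairs measured for Hpgds, 2 of 7 for Ptgis, 1 of 12 for Ptgs1 and 1 of 8 for Ptgs2. The Ptgs2 call, in MHC-II-high BAMs, rested on few cells too. In groups with no call of a member to set beside it, the share of all genes called was 4.37% in Mfap4 Gdf10 Cpz fibroblasts, 3.68% in ependymal cells, 6.66% in interferon-high BAMs and 3.91% in oligodendrocytes. With the subgroups pooled, 0 of 6 members measured were called in all BAMs (3.78% of all genes), 0 of 7 in all fibroblasts (3.65%) and 1 of 6 in all endothelial cells (3.62%), which was Hpgds at 2.07 (95% counting interval 1.52 to 2.84). Ptges, Ptger4 and Ptgfr had 0 calls in the 8 pairs measured for them. In the groups where each member was highest, 0 of the 8 ratios passed the size rule, and they ran from 0.713 for Ptgds to 1.48 for Ptger4. The call for Ptgs1 was in neurons (6.87% of genes called), at 0.547 (95% counting interval 0.332 to 0.906) from 36 UMIs in IL34LacZ/LacZ and 33 UMIs in IL34LacZ/+. It was lost in 3 of 13 alternatives.

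**Figure D5:**
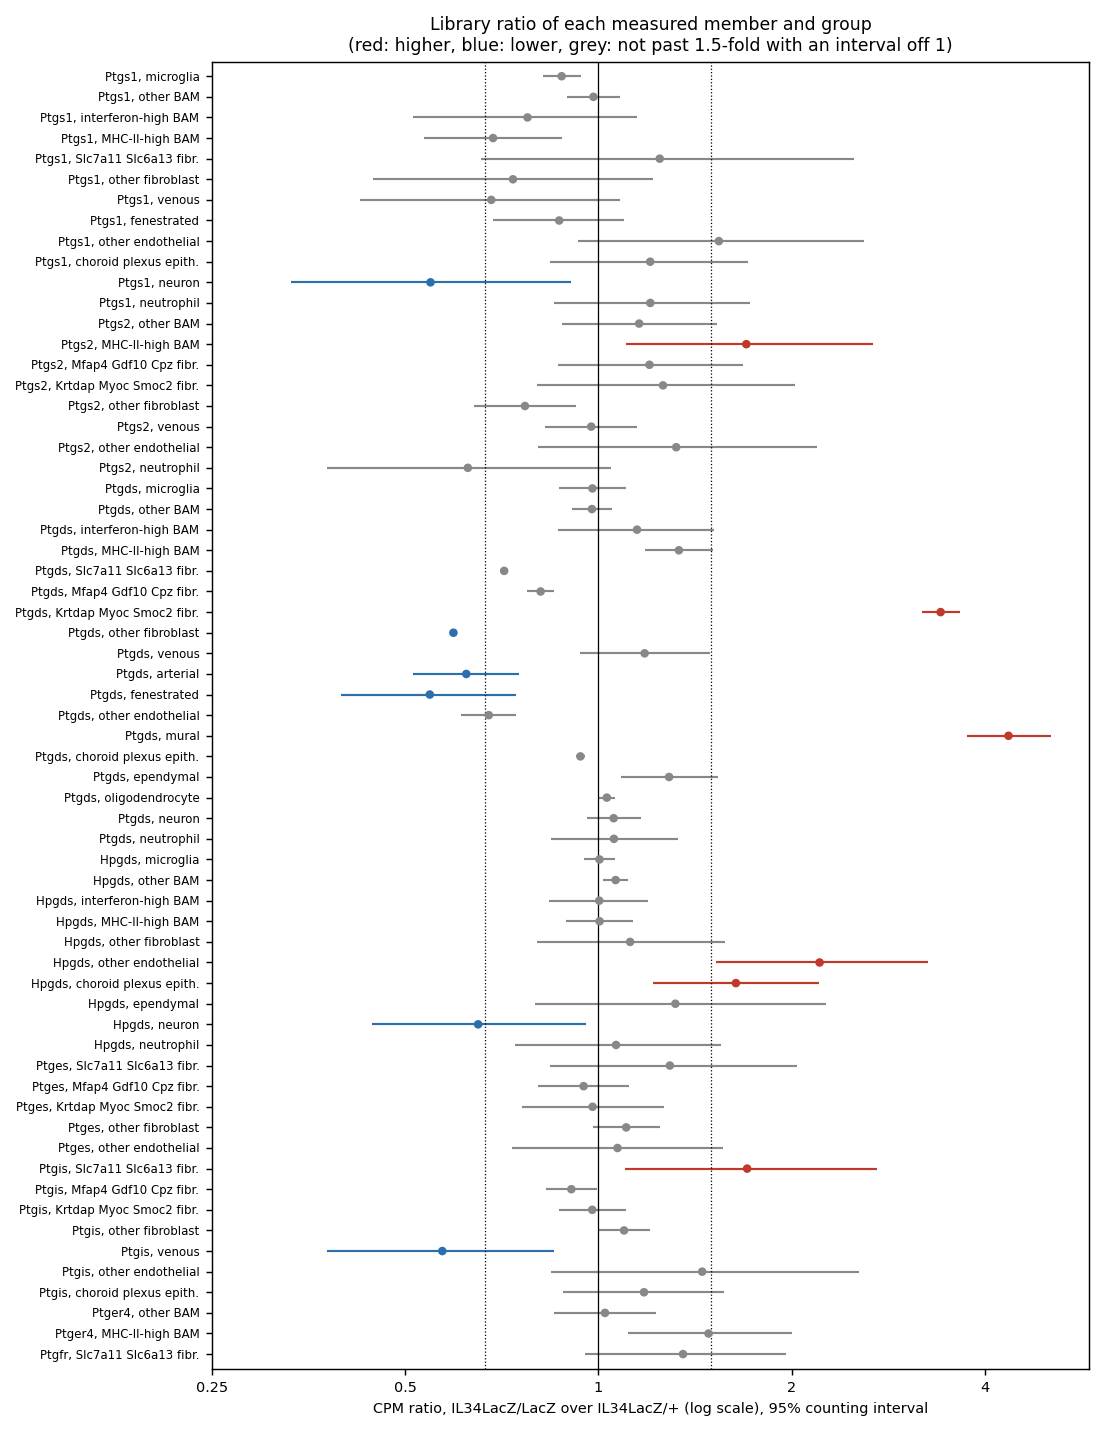
CPM ratio of IL34LacZ/LacZ over IL34LacZ/+ (log scale) with 95% counting intervals for the 63 pairs of member and group with at least 50 UMIs; dotted lines mark 1.5-fold in each direction. The 12 coloured points are called, and Ptgds in mural cells (4.35) and in Krtdap Myoc Smoc2 fibroblasts (3.41) lie farthest right.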

How the data were processed

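Raw UMI counts per gene and barcode were deposited by the authors as 10x matrices, 1 per library, written by Cell Ranger 5.0.0 (per the file headers) with GRCm38.p6 as build, per the submitters' processing notes. The sources used here do not give the rule that kept barcodes, of which the lowest held 500 UMIs. Barcodes under 1000 UMIs, under 500 genes or over 10% mitochondrial UMIs were dropped, and doublets were removed with Scrublet in scanpy 1.11.5 at an expected rate of 10% (1218 barcodes, 6.46%, in IL34LacZ/LacZ and 1106, 6.44%, in IL34LacZ/+).

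Clusters came from 2000 variable genes without the members and the pathway list, 30 principal components, 20 neighbours and Leiden resolution 1 (leidenalg 0.10.2), giving 33 clusters, and fibroblasts, BAMs and endothelial cells were split again at resolution 0.5. A cluster was named for a type where its markers stood on average at least 1 log2 unit above the median cluster and 0.5 above the next type, with at least 3 markers raised 2-fold, and subclusters likewise within their class; clusters with 20% or more of the level of another type's markers in that type were left out as mixed (529 cells in IL34LacZ/LacZ and 349 in IL34LacZ/+); 192 cells in IL34LacZ/LacZ and 104 in IL34LacZ/+ stayed unnamed. UMIs were summed per group and library and given as CPM with exact Poisson 95% intervals, shares with Clopper-Pearson 95% intervals, and ratios with exact conditional binomial intervals. All cover counting error only, and PCR duplicates are removed only as far as UMIs do so. With equal weight per cell, the pooled interval was only scaled to the new ratio. The ratio calculation was tested on simulated Poisson counts, the model that the intervals assume, with no clustering of UMIs in few cells. That test cannot show how far the intervals hold for genes whose UMIs cluster in few cells. Levels are not compared between genes, since 3′ tags depend on each transcript's end.

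The genes named are all 8 members in every group, the pathway list, the 3 genes most like each member, and the immediate-early list as counts with Fos, Egr1 and Nr4a1 by value. The members and lists were chosen with earlier results of these data known. Naming limits, the mixing limit of 20%, resolution 0.5, the limit for Ptgds-high cells, the genes described in them, the motifs and 3 of the alternatives (a mixing limit of 10%, leaving out the 10 richest cells, and leaving out subclusters led by immediate-early genes or Prl) were set after seeing the data. The other alternatives changed the mitochondrial limit, the UMI minimum, doublet removal, the resolution and the genes used for clustering. They also changed the weight per cell, the total, the centring and depth, by thinning cells to 2000 UMIs. Thinning left out cells under 2000 UMIs. Leaving out the 10 richest cells takes a larger part of the library with fewer cells in a group, which can itself move the ratio.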

Additional observations from a re-analysis of the deposited data

Results flagged for a closer look

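The following ratios passed the size rule in a group, while other groups of cells in the same libraries did not or went the other way; with 1 library per genotype the difference between groups was not tested. Ptgds had ratios (IL34LacZ/LacZ over IL34LacZ/+) of 3.41 in Krtdap Myoc Smoc2 fibroblasts and 4.35 in mural cells, against 0.622 in arterial cells, 0.546 in fenestrated cells and 0.594 in other fibroblasts. Ptgis had 1.70 in Slc7a11 Slc6a13 fibroblasts and 0.571 in venous cells. Hpgds had 1.64 in choroid plexus epithelium, 2.21 in other endothelial cells and 0.649 in neurons.

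Cells outside the 18 compared groups also carried members. The unnamed cells, a cluster led by Prl, Pomc and Dcn, held 16536 CPM of Ptgds in IL34LacZ/LacZ and 18705 CPM in IL34LacZ/+, and 20 cells in IL34LacZ/LacZ and 7 in IL34LacZ/+ held 98.4% of those UMIs in IL34LacZ/LacZ and 99.1% in IL34LacZ/+. The same cells held 50.4 CPM of Ptges in IL34LacZ/LacZ and 91.5 CPM in IL34LacZ/+, and 55.4 CPM of Ptgfr in IL34LacZ/LacZ and 116 CPM in IL34LacZ/+. Monocytes, at 91 cells in IL34LacZ/LacZ and 43 in IL34LacZ/+, held 53.4 CPM of Ptger4 in IL34LacZ/LacZ and 65.7 CPM in IL34LacZ/+.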

How the results depend on the processing

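The leading group of each member was the same for 8 of 8 members under 8 of the 15 alternatives; Ptger4 moved to another BAM group in 6 of the other 7, and a mitochondrial limit of 5%, which leaves 26 measured pairs, kept it for 4 of 8. The 12 calls became 4 (0 higher) at that limit and 7 (3 higher) after thinning, and calls lower in IL34LacZ/LacZ became 10 at a limit of 20%; with doublets kept 17 of 67 pairs were called. The Ptgds ratio in Slc7a11 Slc6a13 fibroblasts, 0.713, was 0.660 and 0.724 at mitochondrial limits of 5% and 20%, 0.749 and 0.651 at minimums of 500 and 2000 UMIs, 0.654 with doublets kept, 0.699 and 0.684 at resolutions 0.5 and 2, 0.683 with equal weights, 0.659 thinned, 0.695 centred and 0.865 without the 10 richest cells. The Ptgs2 ratio in venous cells, 0.974, was 1.33 with equal weights and 1.19 without those cells. The cause was not tested. None of the ratios recomputed under these alternatives for the pairs that were called changed its side of 1.

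No paired analysis was possible because each genotype has 1 library, so no replicate numbers are shared and no replicate can be left out. Depth limits the members with few UMIs: Ptger4 was measured in 2 groups and Ptgfr in 1. A group at 0 UMIs allows up to 3 as a 1-sided limit, and its 2-sided Poisson interval reaches further.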
